A study of Bos taurus with 6 samples.

Results

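Glycerolipid assembly was examined through 8 genes. GPAM, AGPAT2, DGAT1, DGAT2 and MOGAT1 encode enzymes that join fatty acids to a glycerol backbone, LPIN1 encodes the phosphatase that acts between those steps, and GPD1 and PCK1 encode enzymes that help to supply that backbone. Members were taken by name: every probe set other than the array's controls whose annotation gives a single gene symbol equal to 1 of these 8. A probe set is the group of array oligonucleotides that reports 1 transcript. Each gene had 1 such probe set, so the members were 8 of the 9155 genes named by the annotation, or 8 of 24016 probe sets, and no listed gene was missing. RNA came from the longissimus thoracis, a long back muscle in which beef cattle deposit marbling fat, of 6 castrated males of the Japanese Black breed. All 6 entered at 13 to 14 months of age and were fattened for 7 months, to 20 to 21 months, on feed for a daily gain of 1.0 kg. The supplemented group of 3 steers was given 296.8 IU of vitamin A per kg body weight by mouth every week, and the restricted group of 3 steers was kept without that supplement. Each array held 1 steer.

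Triacylglycerol, the stored form of fat, is built in steps on glycerol phosphate. A first acyltransferase adds a fatty acid to glycerol phosphate, a second makes phosphatidate, a phosphatase removes the phosphate to give diacylglycerol, and a last acyltransferase completes the molecule. In fat cells glycerol phosphate comes from glucose or from smaller precursors by glyceroneogenesis, and the dehydrogenase GPD1 and PCK1 take part in its supply. Within muscle these steps run in the fat cells between the fibres and in the fibres themselves.

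The deposited values were taken as log2 values, running from 4.807 to 12.833, and differed very little between arrays. Over all probe sets the median distance between the highest and the lowest array was 6.77e-07 deposited log2 units, for a reason that is not given in the sources used here, so differences are not read as fold changes. Measurements are given in deposited units and in within-group standard deviations (SDs) of the same probe set. The array medians were on average higher by 2.22e-06 in the restricted group, which is more than the difference between the diets in 87.2% of probe sets. Median alignment, in which every array is moved to a common median, was therefore run as an alternative. Restricted steers were 598.3 ± 11.4 days old and supplemented steers 610.0 ± 9.17 days (SD, n = 3 each). Of 15 skeletal muscle fibre markers listed, 13 had a named probe set, with means from 7.88 to 12.7, above the median of all probe sets of 5.145. Bulk tissue was measured, so more cells of a type and more RNA per cell cannot be told apart.

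Of the 8 members, 6 had a higher mean in restricted steers and 2 a lower one, and 0 passed the limma test after Benjamini-Hochberg adjustment. GPAM, DGAT2 and PCK1 had the widest differences, between 1.76 and 2.07 SDs, and GPD1 and LPIN1 had lower means in restricted steers. Over all probe sets 48.3% had a higher mean in restricted steers, and 0.00416% passed the adjusted threshold. The median difference was 0.777 SDs over the 8 members and -0.0322 SDs over all probe sets. At an unadjusted p under 0.05 there was 1 member, DGAT2, against 4.08% of all probe sets. The groups did not overlap in 1 member, PCK1, against 8.76% of all probe sets. With 8 members, 1 of either kind is near the background share.

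**Figure D1:**
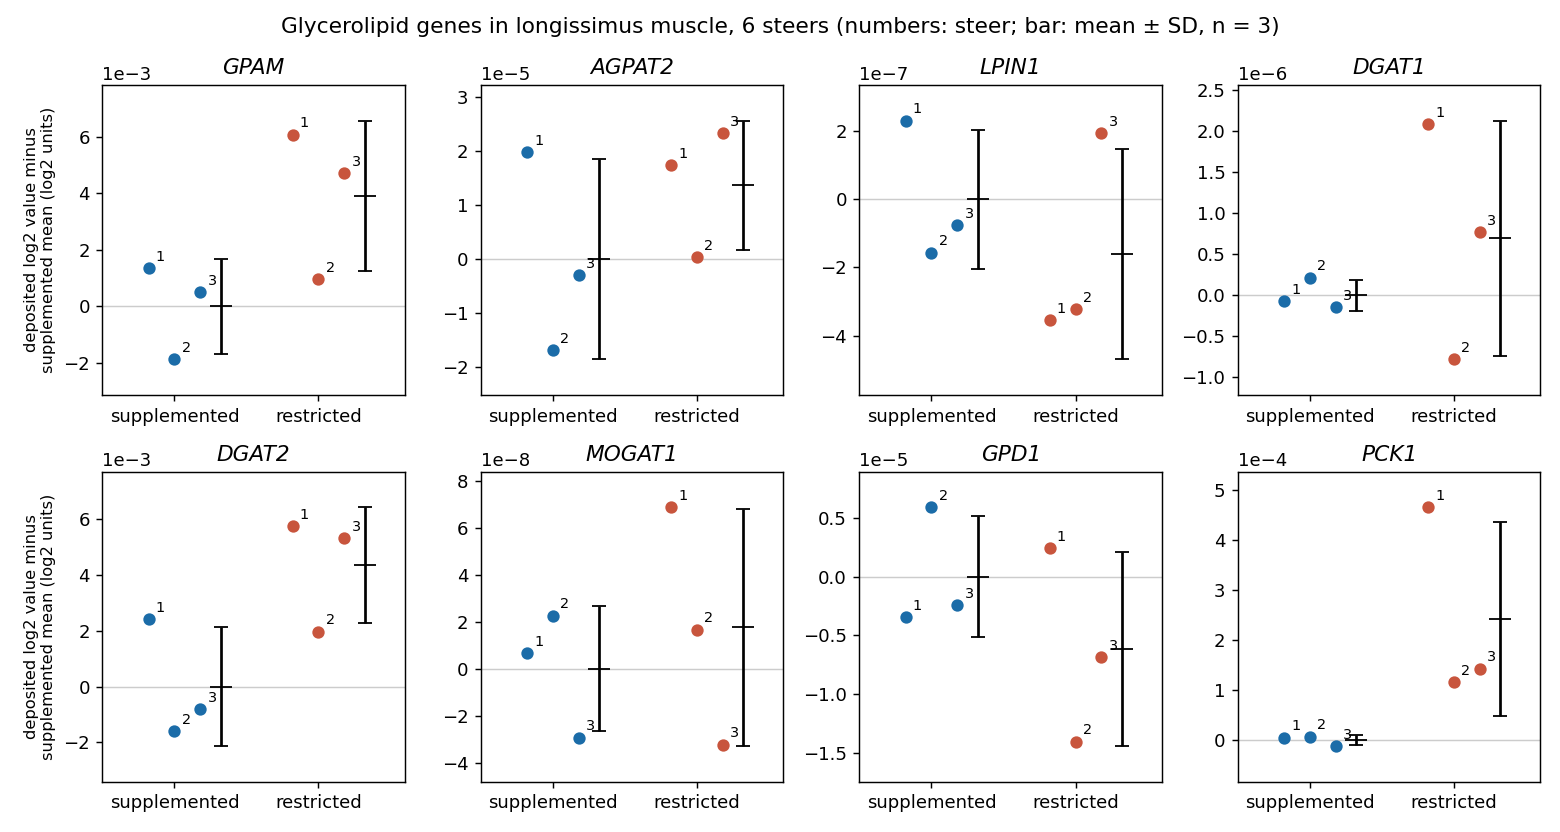
Values of the 8 genes in each steer. The y axis is the deposited log2 value minus the mean of the supplemented group (log2 units, a scale of its own in every panel), points are steers with their numbers, and bars are group means with SD (n = 3). In PCK1 all restricted steers lie above all supplemented ones, and in the 7 other genes the groups overlap.

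The acylation of glycerol phosphate was represented by GPAM and AGPAT2. GPAM (Entrez Gene 497202) encodes the mitochondrial glycerol phosphate acyltransferase, which adds the first fatty acid. Its deposited log2 values were 6.54370, 6.54047 and 6.54285 in supplemented steers 1 to 3, and 6.54842, 6.54329 and 6.54706 in restricted steers 1 to 3. Restricted steers 1 and 3 were the highest of all, while restricted steer 2 lay just below supplemented steer 1, so that the groups overlapped by this 1 pair. The means were 6.54234 ± 0.00168 and 6.54626 ± 0.00265 (SD, n = 3 each). The difference of 0.00392 deposited log2 units, or 1.76 SDs, had a 95% interval from -0.000641 to 0.00848 (limma unadjusted p = 0.0769, adjusted p = 1).

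AGPAT2 (Entrez Gene 512112) encodes the acyltransferase that turns lysophosphatidate into phosphatidate and is needed for fat cells to form normally. Values ran from 5.898377 in supplemented steer 2 to 5.898417 in restricted steer 3. Supplemented steer 1, at 5.898414, lay above restricted steers 1 (5.898411) and 2 (5.898394), and the groups overlapped widely. The difference was 1.37e-05 deposited log2 units or 0.878 SDs (limma unadjusted p = 0.312). It fell to 5.24e-06 without supplemented steer 2 and rose to 2.35e-05 without supplemented steer 1.

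LPIN1 (Entrez Gene 537224) encodes lipin 1, the phosphatidate phosphatase of fat and muscle, which makes diacylglycerol and also acts as a transcriptional coregulator. Its 6 values lay between 5.090159081 and 5.090159668, with restricted steers 1 and 2 lowest and supplemented steer 1 and restricted steer 3 highest. The difference was -1.61e-07 deposited log2 units or -0.614 SDs (limma unadjusted p = 0.469). This is smaller than the offset between the array medians. LPIN1 was also the 1 member with a mean under that of the median probe set. All 8 members lay above the first quartile.

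The last acylation was represented by DGAT2 and DGAT1. DGAT2 (Entrez Gene 404129) encodes the diacylglycerol acyltransferase that is tied to newly made fatty acids and lipid droplets. Its deposited log2 values were 6.01774, 6.01373 and 6.01453 in supplemented steers 1 to 3, and 6.02108, 6.01730 and 6.02065 in restricted steers 1 to 3. As in GPAM, restricted steers 1 and 3 were highest and restricted steer 2 lay just below supplemented steer 1. The means were 6.01533 ± 0.00213 and 6.01967 ± 0.00207 (SD, n = 3 each). The difference of 0.00434 deposited log2 units, or 2.07 SDs, had a 95% interval from 3.37e-05 to 0.00865 (limma unadjusted p = 0.0488, adjusted p = 1).

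DGAT1 (Entrez Gene 282609) encodes the other diacylglycerol acyltransferase, an enzyme of the endoplasmic reticulum with no sequence kinship to DGAT2. Restricted steer 1 was highest at 5.543161655 and restricted steer 2 lowest at 5.543158795, so both ends of the range were restricted steers. The 3 supplemented steers lay between 5.543159430 and 5.543159787, with an SD of 1.89e-07 against 1.43e-06 in restricted steers. The difference of 6.90e-07 deposited log2 units, or 0.676 SDs (limma unadjusted p = 0.426), is within the offset of the array medians and turned to lower, -1.53e-06, under median alignment. Without restricted steer 1 it was -6.17e-09.

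MOGAT1 (Entrez Gene 407225) encodes a monoacylglycerol acyltransferase, which makes diacylglycerol, the substrate of that last step, without passing through glycerol phosphate. It was the flattest of the 8 members, with all values between 5.250294516 and 5.250294617, and restricted steers 1 and 3 at the ends of that range. The difference was 1.77e-08 deposited log2 units or 0.438 SDs (limma unadjusted p = 0.676). It turned to lower under median alignment, with age as a covariate and without restricted steer 1.

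**Figure D2:**
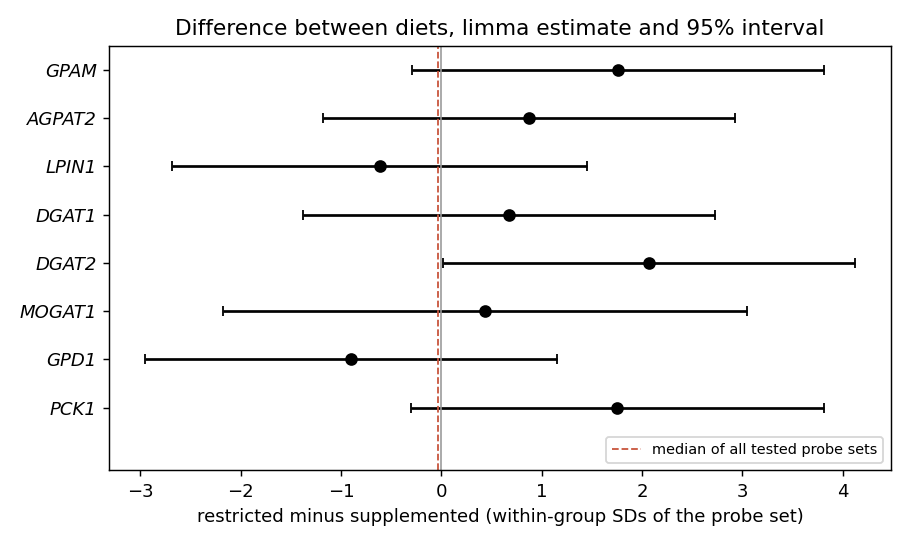
Difference between the diets for the 8 genes, restricted minus supplemented, in within-group SDs of each probe set (points: limma estimates; bars: 95% intervals; dashed line: median of all tested probe sets). The interval of DGAT2, at 2.07 SDs, stays just above 0 before adjustment, and the other 7 intervals include 0.

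Glycerol phosphate supply was represented by PCK1 and GPD1, whose means differed in opposite directions. PCK1 (Entrez Gene 282855) encodes cytosolic phosphoenolpyruvate carboxykinase, the control point of gluconeogenesis in liver and of glyceroneogenesis in fat. Supplemented steers 1 to 3 had deposited log2 values of 5.249833, 5.249835 and 5.249817. Restricted steers 1 to 3 had values of 5.250293, 5.249945 and 5.249971. All restricted steers were above all supplemented ones, with a gap between the groups of 0.000109, which is 23.0% of the whole range, and restricted steer 1 stood far above the rest. The supplemented steers were close together, with an SD of 1.02e-05 against 0.000194 in restricted steers. The difference was 0.000241 deposited log2 units or 1.76 SDs, with a 95% interval from -4.08e-05 to 0.000523 (limma unadjusted p = 0.0780, adjusted p = 1). Without restricted steer 1 it was 0.000129, or 9.57 of the smaller SDs then left, with an adjusted p that was still 1. With age as a covariate it was 0.000158. The groups in PCK1 did not overlap under median alignment or quantile normalization either.

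GPD1 (Entrez Gene 525042) encodes the cytosolic glycerol phosphate dehydrogenase, which makes glycerol phosphate from a glycolytic intermediate and is abundant in muscle fibres as well as in fat. Its values ran from 9.156778 in restricted steer 2 to 9.156798 in supplemented steer 2. Restricted steer 1, at 9.156795, was second highest, while restricted steers 2 and 3 were lowest. The difference was -6.18e-06 deposited log2 units or -0.899 SDs (limma unadjusted p = 0.302). It ran from -1.05e-05 without restricted steer 1 to -2.23e-06 without restricted steer 2.

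The 8 members differed greatly in how much they varied between steers. The distance between the highest and the lowest array was 0.00795 in GPAM and 0.00735 in DGAT2, and only 38 and 41 of the 24016 probe sets had a wider one. PCK1 ranged over 0.000476, with 1.39% of probe sets wider, AGPAT2 over 4.01e-05 with 6.06% wider, and GPD1 over 2.00e-05 with 9.21% wider. DGAT1 ranged over 2.86e-06, with 24.9% of probe sets wider. LPIN1 and MOGAT1, at 5.87e-07 and 1.01e-07, had a narrower range than the median probe set. The acyltransferases of the last step, DGAT2 and DGAT1, thus lay far apart on this scale. Whether these ranges follow expression or the unstated processing was not tested.

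**Figure D3:**
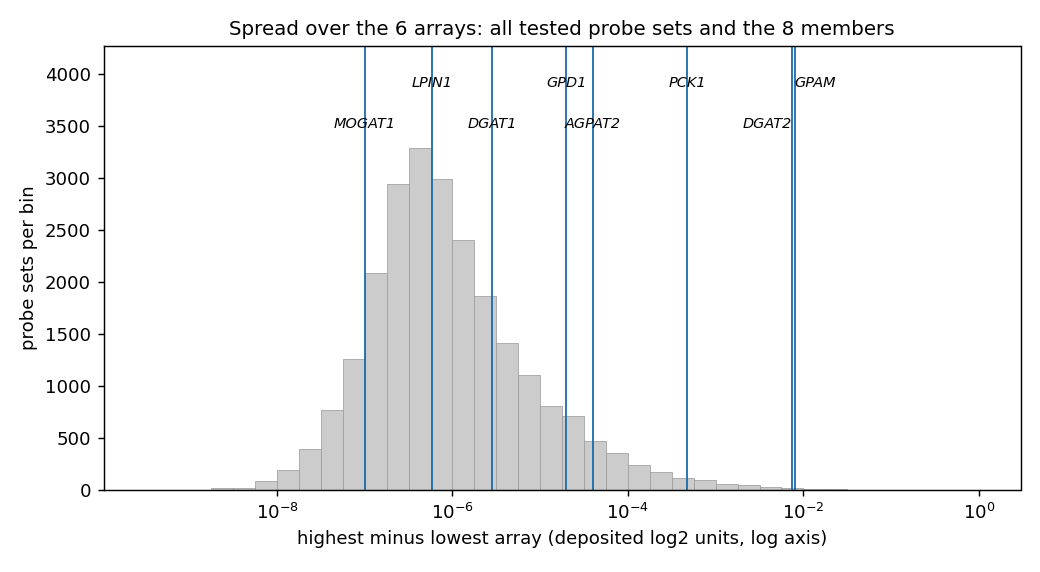
Spread over the 6 arrays. The x axis is the highest minus the lowest array (deposited log2 units, log axis), grey bars count the tested probe sets, and blue lines mark the 8 genes. DGAT2 and GPAM lie at 0.00735 and 0.00795, far to the right of the bulk of probe sets, and MOGAT1 at 1.01e-07 to its left.

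GPAM and DGAT2 ranked the 6 steers in the same order, from highest to lowest restricted 1, restricted 3, supplemented 1, restricted 2, supplemented 3 and supplemented 2. This order was shared by 40 of the 24016 probe sets, or 0.167%, GPAM and DGAT2 included. The orders of the other members were shared by 18 (AGPAT2, 0.075%) to 40 probe sets (GPD1, 0.167%). The share of 0.167% thus does not mark this order as rare. Likeness of profiles was measured as the root mean square difference of values standardised over the 6 arrays, where 0 means the same profile. It was 0.276 between GPAM and DGAT2, 0.433 between AGPAT2 and DGAT2, and 0.525 between AGPAT2 and GPAM. PCK1 was at 0.539 from GPAM and 0.624 from DGAT2. GPD1 and LPIN1 stood apart, at 1.44 and 1.24 from DGAT2. Restricted steer 1 was the highest of all steers in 5 of the 8 members, against 16.4% of all probe sets. The distances of GPAM, DGAT2 and PCK1 from the profile of the 6 array medians were 0.835, 0.728 and 0.687.

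Among other genes in the upper part of the level range (above the median probe set), the nearest to GPAM were TSPAN4 at 0.0537, NID2, a basement membrane protein, at 0.156 and TRPC2 at 0.184. The nearest to DGAT2 were FAM32A at 0.115, RBP4, the plasma carrier of retinol, at 0.134 and PCCA, a subunit of propionyl-CoA carboxylase, at 0.168. The nearest to PCK1 were CAVIN3, a caveolar coat protein, at 0.109, RHOJ at 0.142 and BCAT2, the mitochondrial branched-chain aminotransferase, at 0.154. These are the closest of all 7705 candidate probe sets over only 6 arrays.

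The mean of fat cell markers gave the same order of steers as GPAM and DGAT2, although only 1 of the 12 single markers had that order. Of 16 adipocyte marker symbols listed, 12 had a named probe set, the 1 with the highest mean standing for its gene, as in the other cell lists. On these probe sets 12 of 12 had a higher mean in restricted steers, with 0 past the adjusted threshold of limma. The groups did not overlap in 3, CFD, CIDEA and CD36, all higher, against 4.12% of all probe sets in that direction. At an unadjusted p under 0.05 there was 1, CFD, against 1.91% of all probe sets in that direction. CFD differed by 0.000157 deposited log2 units or 6.35 SDs (limma unadjusted p = 0.000717). Over all probe sets of the markers, only 1 of 2 for LEP, 1 of 2 for TRARG1 and 2 of 4 for LIPE were higher. Under median alignment 9 of the 12 were higher, the exceptions being LEP, CEBPA and TRARG1. With quantile normalization 7 were higher, 1 was lower and 4 had equal group means. Their summed deposited log2 values ran from 72.8648 to 72.8990 in supplemented and from 72.8825 to 72.9132 in restricted steers, and no marker was listed at 0. The mean of the standardised markers was 0.321, -1.02 and -0.730 in supplemented steers 1 to 3, and 1.08, -0.261 and 0.612 in restricted steers 1 to 3. Restricted steer 2 thus lay below supplemented steer 1, as it did in GPAM, DGAT2 and AGPAT2. The same held in DGAT1, LPIN1 and GPD1, so it is not particular to members with profiles near the markers. In MOGAT1 and PCK1, and in the markers CFD, CIDEA and CD36, restricted steer 2 lay above supplemented steer 1. The profile of DGAT2 was at 0.234 from that of the adipokine ADIPOQ and at 0.265 from that of PPARG, the nuclear receptor that drives fat cell formation. GPAM was nearest among the markers to LPL, the lipase that frees fatty acids from blood lipoproteins, at 0.269, and PCK1 to the fatty acid transporter CD36, at 0.215. These are the nearest of the 12, and the markers were not all alike: DGAT2 was at 1.03 from LEP, the hormone leptin, at 0.912 from the transcription factor CEBPA and at 0.772 from TRARG1. GPAM was at 1.01 from LEP and 1.09 from CEBPA. LPIN1 and GPD1 were at 1.28 and 1.40 from ADIPOQ, and GPD1 was nearer to LEP, at 0.750. The part of fat cell number in the values of GPAM, DGAT2 and PCK1 was not tested.

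**Figure D4:**
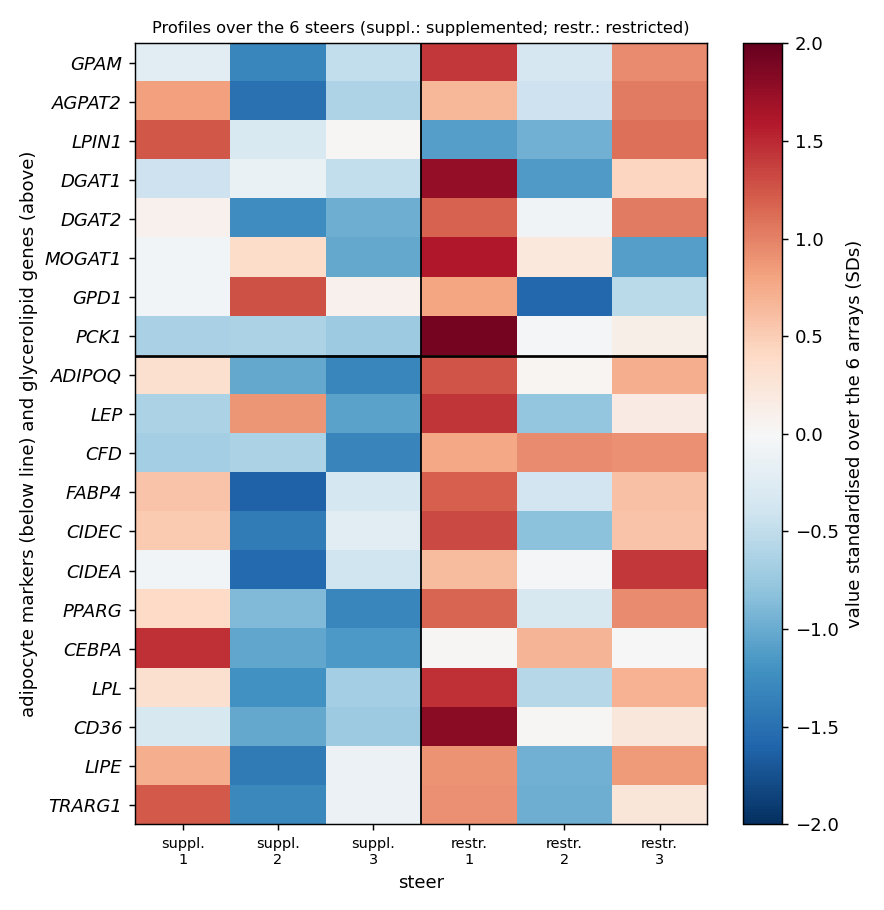
Values standardised over the 6 arrays (colour, in SDs) for the 8 genes, above the line, and the 12 measured adipocyte markers, below it, with 1 column per steer. GPAM and DGAT2 share their order of steers with the mean of the markers, from restricted steer 1 at 1.08 to supplemented steer 2 at -1.02, an order found in 1 of the 12 single markers.

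In the planned fit, lists of other cells had less even directions than the adipocyte list, which did not hold for every list under median alignment. Muscle fibre markers were higher in 2 and lower in 11 of 13 genes, endothelial markers higher in 5 of 6, macrophage markers in 2 of 5, fibroblast markers in 2 of 7 and red cell markers in 2 of 3. Of 4 liver and kidney genes, listed because PCK1 is abundant in those organs, 1 was higher. Under median alignment 2 fibre, 3 endothelial, 2 fibroblast and 0 macrophage, red cell or liver and kidney genes were higher. With quantile normalization all 13 fibre, 4 of 6 endothelial, 2 of 5 macrophage, 2 of 7 fibroblast, 3 of 3 red cell and 3 of 4 liver and kidney genes had equal group means. Of the rest, 2 endothelial, 2 macrophage, 2 fibroblast and 1 liver and kidney genes were higher, and 1 macrophage and 3 fibroblast genes were lower. In these lists 0 genes passed the adjusted threshold of limma. The groups did not overlap in the fibre markers MYH1 and PYGM and the macrophage marker AIF1, all lower in restricted steers. This compares with 8.76% of all probe sets in either direction. MYH1 and PYGM had limma unadjusted p = 0.00836 and 0.00424. Over all probe sets of the fibre genes, 2 of 8 for MYH1, 1 of 2 for CKM, 1 of 2 for ATP2A1 and 1 of 3 for MYH7 were higher.

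The wider pathway was followed through 56 other glycerolipid gene symbols grouped by role. Of these, 37 had a named probe set, the 1 with the highest mean being used. Of the 37, 22 had a higher and 15 a lower mean in restricted steers, 0 passed the adjusted threshold of limma and 2 had an unadjusted p under 0.05, both higher, against 1.91% of all probe sets in that direction. The median difference was 0.217 SDs. The groups did not overlap in 3, all higher, against 4.12% of all probe sets in that direction. Under median alignment 8 of the 37 were higher, and 6.96% of all probe sets, since small differences turn by the construction of that alignment. With quantile normalization 12 of the 37 were higher, 6 were lower and 19 had equal group means.

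Of the genes that act on stored fat and diacylglycerol, G0S2, an inhibitor of the lipase PNPLA2, had the smallest unadjusted p. Its deposited log2 values were 5.55547, 5.55455 and 5.55336 in supplemented steers 1 to 3, and 5.55851, 5.55587 and 5.55657 in restricted steers 1 to 3. All restricted steers were above all supplemented ones, restricted steer 1 again highest. The difference was 0.00252 deposited log2 units or 2.06 SDs (limma unadjusted p = 0.0495, adjusted p = 1). Hydrolysis and diacylglycerol kinase genes were higher in 7 of 9, among them DGKZ at 1.05, DAGLB at 0.831 and LIPE, the hormone-sensitive lipase and also an adipocyte marker, at 0.500 SDs. DGKZ and DAGLB turned to lower under median alignment. Of the 4 probe sets of LIPE 2 were lower.

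In glycerol phosphate supply 4 of 7 other genes were higher. The glycerol channels AQP3 and AQP7 differed by 2.03 and 1.59 SDs (limma unadjusted p = 0.0568 and 0.101), with no overlap of the groups in AQP3. GPD1L, a relative of GPD1, differed by 1.45 SDs, and PC, pyruvate carboxylase, by -0.755 SDs, although 2 of the 3 probe sets of PC were higher. AQP3 and GPD1L turned to lower under median alignment, and AQP7 did not.

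Both other glycerol phosphate acyltransferases measured had higher means, GPAT4 by 1.07 and GPAT3 by 0.764 SDs, but 1 of the 2 probe sets of each was lower, and GPAT4 turned to lower under median alignment. Lysophospholipid acyltransferases were higher in 4 of 10. LPCAT4, whose groups did not overlap, differed by 2.47 SDs (limma unadjusted p = 0.0476), or 1.24e-07 deposited log2 units, and turned to lower under that alignment. AGPAT5 differed by -0.861, LPCAT1 by -0.860 and MBOAT7 by 0.823 SDs, the last also turning to lower. All 3 phosphatidate phosphatases measured were higher, PLPP1 by 0.975, PLPP3 by 0.217 and PLPP2 by 0.0419 SDs, but only 2 of the 3 probe sets of PLPP3 were. With quantile normalization 1 of these phosphatases, PLPP1, was higher and 2 had equal group means. PLPP2 turned to lower under median alignment. Genes of the phospholipid branches were higher in 2 of 6, with PCYT2 at 0.984, CEPT1 at -0.813, PEMT at -0.625 and CDS2 at 0.457 SDs, where PCYT2 and CDS2 turned to lower in the same way. Among the genes named here, quantile normalization turned PC, CEPT1 and PEMT to higher, and AQP3, GPAT4, MBOAT7 and PCYT2 to lower.

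**Figure D5:**
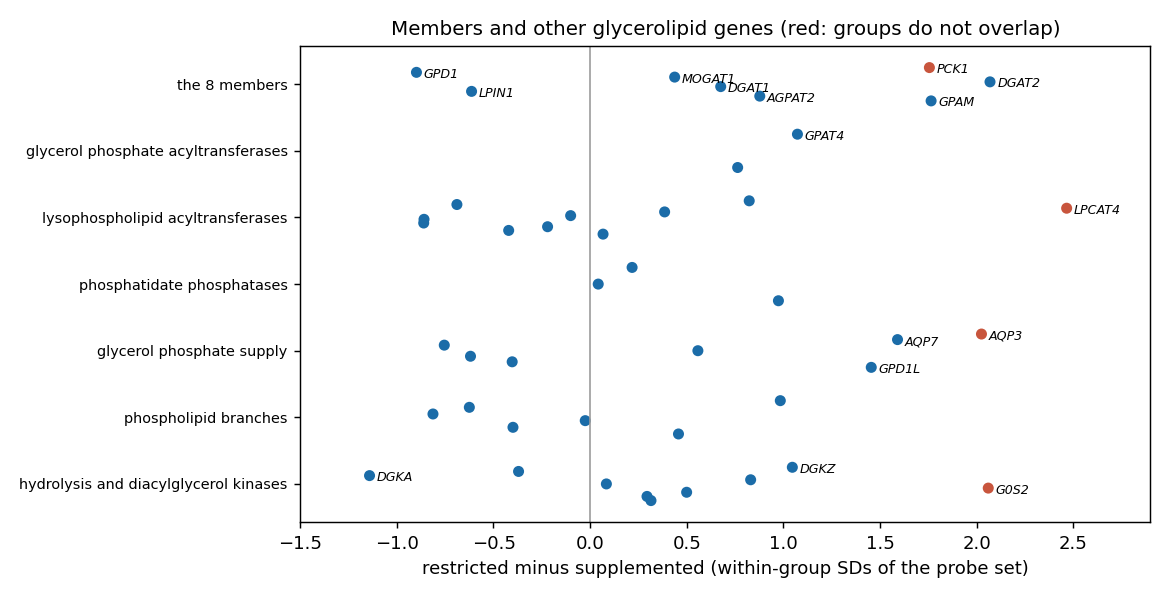
Difference between the diets, restricted minus supplemented, in within-group SDs of each probe set, for the 8 members and 37 other glycerolipid genes by role (points: genes; red: groups do not overlap). PCK1 among the members and LPCAT4, AQP3 and G0S2 among the others have groups that do not overlap, LPCAT4 and AQP3 turning to lower under median alignment, and 0 of these genes passed the adjusted threshold of limma.

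In GPAM and DGAT2 the groups overlapped by the same pair, restricted steer 2 and supplemented steer 1, so leaving out either steer parts them by construction. Leaving out a steer can only add genes without overlap, and the added ones lay in both directions. AGPAT2 parted without supplemented steer 1 and DGAT1 without restricted steer 2, both higher in restricted steers. GPD1 parted without restricted steer 1 (-2.05 SDs) and LPIN1 without restricted steer 3 (-2.02 SDs), both lower. The difference of DGAT2 ran from 0.00354 to 0.00555 and that of GPAM from 0.00284 to 0.00540 deposited log2 units when any single steer was left out, and neither passed the adjusted threshold in any of these fits.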

How the data were processed

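The deposited values form 1 table of 24128 probe sets on 6 arrays, per the file headers 1 column per sample. The range of the deposited values led to their being taken as log2. How the authors made these log2 values (log base, background correction, normalization, summarization) is not given in the sources used here. Per the labels' protocols, RNA was labelled with a 3 prime kit of the GeneChip type from 100 ng of total RNA. No genome build is named for the array, so positions are left out.

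Leaving out 112 control probe sets, limma 3.58.1 (R 4.3.3) was run on all others with lmFit and eBayes without trend, and p-values were adjusted over 24016 probe sets at 0.05. Values were multiplied by 1e+09 for the fit. Residual degrees of freedom were 4 and prior ones 0.483. The fit was tested on simulated data. Symbols came from the platform annotation, which names 1 gene for 13318 probe sets, several for 86 and leaves 10724 unnamed. Named were all members, up to 4 other genes a role with the smallest p, and the 3 nearest profiles. Members and lists were chosen with earlier results of these data known. Alternatives were median alignment of the arrays, quantile normalization, age, array weights, trend, level filters, a replicate block and leaving out each steer. The number of arrays limits the precision.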

Additional observations from a re-analysis of the deposited data

How the results depend on the processing

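Of 107 differences of the 8 members recomputed under alternatives, 102 kept their direction and none passed the adjusted threshold, the smallest adjusted p being 0.472 with quantile normalization. Trend, the level filters and the replicate block leave a difference unchanged by construction, so their share of the 102 says nothing on stability. The 5 that turned to lower were DGAT1 (-1.53e-06) and MOGAT1 (-2.21e-06) under median alignment, by its construction, MOGAT1 with age as a covariate (-1.96e-08), and DGAT1 (-6.17e-09) and MOGAT1 (-7.83e-09) without restricted steer 1. For the last 3 the cause was not tested. With single steers left out DGAT1 ran up to 1.42e-06, without restricted steer 2, and MOGAT1 up to 4.27e-08, without restricted steer 3. With quantile normalization AGPAT2, LPIN1, MOGAT1 and GPD1 had equal group means and no direction, and 15456 probe sets were equal on all arrays. LPIN1 was left out by the filter at the median level. The count of members past the adjusted threshold was 0 under every alternative, as was that of the 37 other genes. The unadjusted limma p of DGAT2 was 0.175 with age, 0.0574 with quantile normalization, 0.0270 under median alignment and 0.0196 with the replicate block. With single steers left out it ran from 0.0245 to 0.134. Under median alignment GPAM and PCK1 were also under 0.05, each at 0.0471 (limma unadjusted p). The share of all probe sets under 0.05 was not counted in these alternatives. The count of members without overlap was 1, and 1 to 4 when single steers were left out, which can only add such members. Over all probe sets the count of calls was 1 as planned, 35 with quantile normalization, 0 with age as a covariate and 2 without supplemented steer 3. The quantile fit included the 15456 probe sets without variance, and their effect on its 35 calls and its adjusted p-values was not tested.

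With the replicate block the count of members past the threshold was 0 and that over all probe sets 0 in place of 1. Deviations of same-numbered steers correlated at 0.0390, 0.0141 and 0.0171 over all probe sets, so the numbers were not taken to pair steers, although each steer correlated best with its own number, a hint from the data and not the design.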

Other observations

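The 42 probe sets with the widest range over the 6 steers, down to DGAT2, hold genes of several kinds. Those of transcription and stress responses include FOS, at the top (0.261 deposited log2 units), ATF3, EGR1 and DDIT4, and those of the matrix include COL1A2, COL3A1 and FN1. PDK4, the kinase that shuts off pyruvate dehydrogenase, has 3 probe sets there. Of genes known for fatty acid synthesis or fat storage there are THRSP, a nuclear protein tied to lipogenesis (0.0775), the fatty acid synthase FASN (0.0265), the desaturase SCD (0.0247), the fatty acid binding protein FABP4 (0.0263), the lipid droplet protein CIDEC (0.0113) and ACSS2, which activates acetate (0.0102). All these genes were picked after their values were seen, and no list was counted. FASN, SCD and THRSP differed between the diets by 0.294, 0.486 and 0.286 within-group SDs, and CIDEC, ACSS2 and FABP4 by 0.701, 0.745 and 0.971, against 1.76 in GPAM and 2.07 in DGAT2. MGST1, a microsomal glutathione transferase, was the 1 other probe set of these 42 with the order of steers found in GPAM and DGAT2, and differed by 1.54 SDs. The groups did not overlap in 1 of the 42, PLBD1, which was lower in restricted steers, against 8.76% of all probe sets without overlap in either direction.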
